A study of Mus musculus with 12 samples.

Results

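The 10 tetraspanin genes *Cd9*, *Cd37*, *Cd53*, *Cd63*, *Cd81*, *Cd82*, *Cd151*, *Tspan13*, *Tspan31* and *Tspan32* were described in progenitor CD8+ T cells with and without the chromatin regulator UTX, encoded by *Kdm6a*. They were chosen by family membership and selected on measured RNA values, with the differences between the genotypes already known, and they are 10 of the 25860 genes listed. Their RNA differences between genotypes are therefore given as a description, without p-values, and nothing is read from how many of them passed the limits for a call. RNA-seq and ATAC-seq, which reads DNA that a transposase can reach in chromatin, were used to ask which genes and accessible regions depend on UTX in these cells. For each assay there were 3 libraries per genotype. The cells, called CD8+ T_prog_ cells, had been sorted out of the pancreatic lymph nodes of female mice on the nonobese diabetic (NOD) background. *NOD-TCR 8.3 WT* mice carry floxed *UTX fl/fl* alleles without the Cre transgene (*Lck-Cre-*) and are UTX sufficient. Mice named *NOD-TCR 8.3 UTX TCD* have the same alleles with *Lck-Cre+*, which is active in the T cell lineage. Both genotypes also have a T cell receptor transgene that recognizes IGRP, a β cell antigen, and deletion by *Lck-Cre* starts during thymic development rather than in the mature progenitor. The age of the mice used for these libraries is not clear from the sources used here. The sort gate is given as Ly108+CXCR6- in the labels and as Ly108+CD39- in the methods.

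Tetraspanins are small proteins that cross the membrane and gather integrins, immunoglobulin-type partners, receptors and enzymes into shared membrane domains. In lymphocytes they take part in adhesion, migration, receptor signaling and the release of extracellular vesicles. CD9 and CD81 are close relatives with partners in common, CD37 and CD53 are largely restricted to leukocytes, and CD63 sits mainly in late endosomes.

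The RNA-seq values are read counts divided by the authors' size factor of each library, called normalized counts here. Total reads recovered per library were 146456724, 144503203 and 193568919 in WT 1 to 3 and 61512402, 175462433 and 187275082 in UTX TCD 1 to 3, so UTX TCD 1 was the shallowest. *Kdm6a*, the targeted gene, had 28365, 28949 and 29172 normalized counts in the WT libraries and 24158, 24792 and 24579 in the UTX TCD libraries. Each UTX TCD library was lower than each WT library, and the log2 fold change was -0.23 (SE 0.04, n = 3 per genotype, adjusted p = 0.00114 by limma). That passes the limit on the adjusted p (0.05) but not the limit on the absolute log2 fold change (0.5) that a call also required. A count over the whole gene does not show which exons were read, so these values check the labels only in direction.

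Markers of the sorted cells were abundant in every library. The 6 CD8 T cell genes, led by *Cd8a*, summed to 942881, 896944 and 927817 normalized counts in WT and to 917688, 900928 and 827295 in UTX TCD. The 6 progenitor genes, led by *Tcf7*, summed to 579732, 562144 and 538005 in WT and to 558627, 528724 and 549954 in UTX TCD. Limma called 0 of the 6 progenitor genes, with an unadjusted p under 0.05 for 2, DESeq2 called 0 and edgeR called 1. Of the 6 CD8 T cell genes all 3 tools called 0, and 5 had an unadjusted p under 0.05 in limma with differences under the limit on size. *Entpd1*, which encodes the CD39 of the gate in the methods, had 4.42 to 29.6 normalized counts. *Cxcr6*, which encodes the receptor absent from the gate in the labels, was read in every library, with 9619 to 13724 in WT and 5286 to 5994 in UTX TCD (log2 fold change -1.07, SE 0.12, adjusted p = 0.000131 by limma).

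Among the 10 tetraspanins, *Cd9* was lower and *Cd81* was higher in UTX TCD cells by far more than any other well-expressed member. Of the abundant members, *Cd53*, *Cd82*, *Cd37* and *Tspan32* differed by little, and *Tspan13* was lower (log2 fold change -0.53). Called by the limits above were 4 of 10 (*Cd9* and *Tspan13* lower, *Cd81* and *Tspan31* higher), where 17.6% of the 14459 genes tested were called, 7.05% lower and 10.5% higher. The genotypes did not overlap for 8 of 10, 5 of them lower and 3 higher in UTX TCD, where 51.9% of the genes tested did not overlap. Since the genes were chosen with this contrast known, nothing is read from these counts. All 10 passed the filter on low values, and their median log2 fold change was -0.17, beside 0 for all genes tested. With each library scaled to the same total, 1 was called lower and 3 higher, and with TMM scaling 2 lower and 1 higher, in place of 2 and 2. In bulk libraries, fewer cells of a type and less RNA per cell cannot be told apart.

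**Figure D1:**
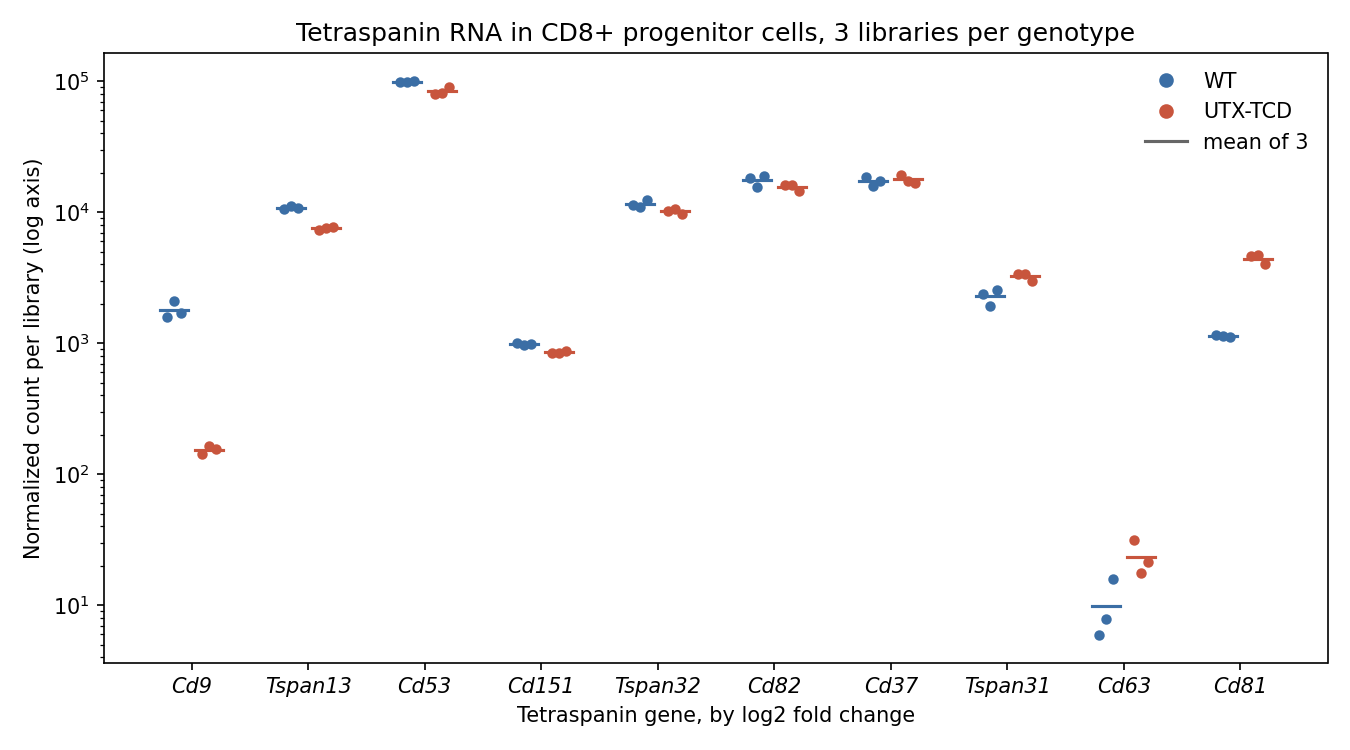
Normalized counts (log axis) of the 10 tetraspanin genes in each of the 3 WT (blue) and 3 UTX TCD (red) libraries, ordered by log2 fold change; each point is a library and each line the mean of 3. *Cd9* lies at 1601 to 2115 in WT and 144 to 164 in UTX TCD, and *Cd81* at 1111 to 1163 in WT and 4031 to 4688 in UTX TCD.

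*Cd9* encodes a tetraspanin that binds integrins and the immunoglobulin-type EWI proteins and regulates adhesion and membrane fusion. Its normalized counts were 1601, 2115 and 1701 in the WT libraries and 144, 164 and 155 in the UTX TCD libraries. Every UTX TCD library was below every WT library, and the highest UTX TCD value was far under the lowest WT value. The means were 1806 ± 272 and 154 ± 10.1 (SD, n = 3 each), which is 11.7-fold lower in UTX TCD, with a log2 fold change of -3.53 (SE 0.13). By log2 fold change it held rank 49 from the bottom among the 14459 genes tested. Over all alternative settings its log2 fold change ranged from -3.61 to -3.41. The gene lies at chr6:125460266-125494791 on the minus strand of mm10. In GENCODE vM21, 10.7% of its exon bases are shared with *Gm26728* on the opposite strand. A processed pseudogene copy, *Cd9-ps*, is also annotated.

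*Cd81* encodes a tetraspanin that is part of the B cell co-receptor and that costimulates T cells. Its normalized counts were 1163, 1146 and 1111 in WT and 4607, 4688 and 4031 in UTX TCD. All 3 UTX TCD libraries were above all 3 WT libraries, the reverse of *Cd9*. The means were 1140 ± 26.4 and 4442 ± 358 (SD, n = 3 each), 3.90-fold higher in UTX TCD, with a log2 fold change of 1.96 (SE 0.07) that ranged from 1.92 to 2.03 over the alternative settings. It held rank 257 from the top among the genes tested. The gene lies at chr7:143052739-143067934 on the plus strand, and 3.61% of its exon bases are shared with *R74862* on the opposite strand. *R74862* itself had 61.8 to 97.1 normalized counts in WT and 130 to 177 in UTX TCD.

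Set against each other per kilobase of exon, the levels of this related pair changed order. *Cd9* was above *Cd81* in WT, 1.94-fold, 2.60-fold and 2.16-fold in libraries 1 to 3. *Cd81* was above *Cd9* in UTX TCD, 22.7-fold, 20.3-fold and 18.5-fold in libraries 1 to 3. So the order was the same in all 3 libraries of a genotype and opposite between the genotypes.

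*Cd53* and *Cd37* encode the leukocyte tetraspanins, with known roles in lymphocyte adhesion and homing. *Cd53* had 98572, 98096 and 101186 normalized counts in WT and 79633, 81458 and 91066 in UTX TCD. These did not overlap, but the difference was small, with a log2 fold change of -0.24 (SE 0.06) and means of 99285 ± 1664 and 84052 ± 6142 (SD). *Cd37* had 18596, 15887 and 17284 in WT and 19392, 17477 and 16607 in UTX TCD, and these overlapped. Its log2 fold change was 0.05 (SE 0.07) and took either sign over the alternative settings.

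*Cd82* encodes a tetraspanin known as a metastasis suppressor, and *Cd151* one that binds laminin-binding integrins. *Cd82* had 15520 to 18893 normalized counts in WT libraries and 14647 to 16289 in UTX TCD libraries, and the genotypes overlapped (log2 fold change -0.16, SE 0.08). *Cd151* had 979 to 1000 in WT and 839 to 872 in UTX TCD, without overlap, with a log2 fold change of -0.22 (SE 0.08) that was -0.16 when each library was scaled to the same total. *Tspan32*, whose product restrains T cell proliferation, had 11082 to 12358 in WT and 9652 to 10629 in UTX TCD, without overlap (log2 fold change -0.19, SE 0.06).

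*Tspan13* and *Tspan31* are family members with less settled roles in T cells, and both lay close to the limit of 0.5 on the absolute log2 fold change. *Tspan13* had 10570, 11200 and 10870 normalized counts in WT and 7367, 7592 and 7672 in UTX TCD. Its libraries did not overlap, and its log2 fold change was -0.53 (SE 0.04), or -0.47 and so under the limit when each library was scaled to the same total. *Tspan31* had 2366, 1942 and 2537 in WT and 3370, 3378 and 2968 in UTX TCD. Its UTX TCD libraries were all higher, with a log2 fold change of 0.51 (SE 0.10) that fell under the limit with TMM scaling (0.49), without WT 2 (0.40), without UTX TCD 1 (0.48) and without UTX TCD 2 (0.48). As much as 29.2% of the exon bases of *Tspan31* are shared with *Cdk4* on the opposite strand, and the strand setting of the counting is not given in the sources used here, so reads from the shared part cannot be told apart. *Cdk4* had 13882, 14238 and 14802 normalized counts in WT and 14623, 15262 and 15979 in UTX TCD, which overlapped.

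*Cd63*, the late endosomal member often used to mark extracellular vesicles, was read at a very low level. It had 5.94, 7.90 and 16.0 normalized counts in WT and 31.5, 17.6 and 21.4 in UTX TCD, from 6, 8 and 21 reads and from 14, 22 and 29 reads. The UTX TCD libraries were all above the WT libraries, but the lowest of them was close to the highest WT library, and the spread was wide (means 9.95 ± 5.34 and 23.5 ± 7.18, SD). The log2 fold change was 1.23 (SE 0.44). It passed the limits for a call only with each library scaled to the same total (1.29) and without WT 3 (1.60). Nothing is read from these calls, since *Cd63* was chosen with this contrast known. Its WT mean was also under 10, the minimum for testing over all libraries. *Cd63* has an annotated processed pseudogene, *Cd63-ps*, and how the counting treated reads that match both is not given in the sources used here, so its level is uncertain.

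Ordered by level per kilobase of exon in WT, *Cd53* came first at 56995 ± 955 (SD, n = 3) normalized counts per kilobase. It was followed by *Cd82*, *Cd37* and *Tspan13* at 5833, 4899 and 4398 per kilobase, where *Cd82* overlapped *Cd37* and *Cd37* overlapped *Tspan13*. *Tspan32* at 1858 per kilobase was above *Tspan31* at 1040 and *Cd9* at 883, and the latter pair overlapped. The level of *Tspan32* depends on the length used, 6234 exon bases in GENCODE vM21. These include a long exon (chr7:143005638-143009985) with a peak that the authors' annotation places in an intron. With a shorter length, its level per kilobase would be higher and its place in either genotype could change. *Cd81* at 396 ± 9.18 was above *Cd151* at 362 ± 3.82, and *Cd63* was last at 2.70 ± 1.45 per kilobase. In UTX TCD the top 5 places were the same, with *Cd53* at 48251 ± 3526 per kilobase, although *Cd82* and *Cd37* overlapped. *Tspan32*, *Cd81* and *Tspan31* then stood at 1632, 1543 and 1477 per kilobase, each overlapping the next. *Cd9* moved from place 7 to place 9, at 75.5 ± 4.94 per kilobase, below *Cd151* at 311 ± 6.63 and above *Cd63* at 6.38 ± 1.95. *Cd81* moved from place 8 to place 6.

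Tested genes whose centred log2 values followed those of *Cd9* most closely over the 6 libraries were *Bend7*, *Arhgap23*, *Rnf144a*, *Adgrg5* and *Prss12*, with root mean square differences from *Cd9* of 0.13, 0.161, 0.172, 0.188 and 0.20 on the log2 scale. *Adgrg5*, which encodes an adhesion G protein-coupled receptor, had 22285 ± 1189 normalized counts in WT and 2141 ± 140 in UTX TCD (SD, n = 3 each). *Bend7* had 277 ± 13.8 and 20.6 ± 2.25 normalized counts. Likeness here is set by the difference between genotypes, which is the contrast that *Cd9* was chosen on.

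*Cd9* and *Cd81* are also expressed by platelets, B cells, myeloid cells and stromal cells, and marker lists for these were read beside them. Of the 5 platelet markers, *Ppbp* and *Gp1bb* were at 0 in every library (for *Gp1bb* 92.9% of exon bases are shared with other genes on the same strand, so its 0 is uncertain), *Pf4* had 1 read in 1 WT library and *Gp9* had at most 11.2 normalized counts. The platelet list was made up of *Itga2b* and summed to 404, 420 and 384 in WT and to 454, 380 and 370 in UTX TCD, and *Itga2b*, the only one high enough to test, was not called by limma (unadjusted p over 0.05), edgeR or DESeq2.

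The 6 B cell markers summed to 3030, 2538 and 2880 normalized counts in WT and to 1498, 1329 and 1502 in UTX TCD. The most abundant of them was *Cd79b*, which fell in UTX TCD (log2 fold change -1.98, SE 0.15, adjusted p = 1.47e-05 by limma), while *Cd22* (1.90, SE 0.27, adjusted p = 0.000535) and *Ms4a1* (1.72, SE 0.56, adjusted p = 0.0367) rose, so 3 of 5 tested were called and they did not move together. Over all genes tested, 17.6% were called, 7.05% lower and 10.5% higher. The call of *Ms4a1* was lost without WT 1 (adjusted p = 0.119), WT 3 (0.0889), UTX TCD 2 (0.0681) or UTX TCD 3 (0.112). *Pax5*, a defining transcription factor of B cells, had at most 11.1 normalized counts. Among the UTX TCD libraries, *Ms4a1* (73.0) and *Cd22* (502) were highest in UTX TCD 3, and the more abundant *Cd79b* (470) and *Cd79a* (380) were lowest there.

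The 6 myeloid markers, led by *Cd68*, summed to 862, 843 and 700 normalized counts in WT and to 1048, 797 and 993 in UTX TCD, and *S100a8* was at 0 in every library. Of 4 tested, 2 were called lower, *Csf1r* (log2 fold change -1.85, SE 0.39, adjusted p = 0.00496 by limma) and *Fcgr3* (-2.15, SE 0.38, adjusted p = 0.00201), where 17.6% of all genes tested were called, 7.05% lower and 10.5% higher. The other 2 were not called: *Cd68*, the most abundant, was higher (0.43, SE 0.14, adjusted p = 0.0377), under the fold change limit, and *Lyz2* differed by 0.07. In UTX TCD the mean of *Csf1r* was 6.07, under 10, the minimum for testing over all libraries. With a minimum of 1, which both genotypes pass, *Csf1r* stayed called. The 4 dendritic cell markers, led by *Zbtb46*, summed to 94.1, 68.1 and 45.0 in WT and to 121, 119 and 119 in UTX TCD, and 1 of 2 tested rose, *H2-Ab1* (1.17, SE 0.38, adjusted p = 0.0351), a call lost without WT 3 (adjusted p = 0.0978), UTX TCD 1 (0.107) or UTX TCD 2 (0.0889). The 5 stromal or endothelial markers, led by *Pecam1*, which T cells also express, summed to 31936, 29798 and 32082 in WT and to 37925, 38147 and 33883 in UTX TCD. Of 3 tested, *Col1a2* rose (0.81, SE 0.23, adjusted p = 0.0222), a call lost without UTX TCD 2 (adjusted p = 0.0805), and *Cdh5* was listed at 0 in all 3 UTX TCD libraries and at 24.8, 21.7 and 9.91 in WT. The 2 CD4 T cell markers, led by *Foxp3*, summed to 407, 339 and 355 in WT and to 364, 332 and 321 in UTX TCD, and 1 of 2 tested was called lower, *Cd4*. The 3 markers of the more differentiated mediator cells, led by *Nkg7*, summed to 42049, 35096 and 45070 in WT and to 25047, 27074 and 27418 in UTX TCD, and 1 of 3 tested was called lower, *Cxcr6*. The part of any such cells in the levels of *Cd9* and *Cd81* was not tested.

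The rest of the tetraspanin family was read from a list of all 33 family names, of which 31 were listed and 23 tested. Of the 23, 7 were called, 4 lower and 3 higher, or 3 lower and 4 higher with each library scaled to the same total, where 17.6% of all genes tested were called, 7.05% lower and 10.5% higher. Beside the 10 genes, 21 were listed and 13 tested, of which 3 were called: *Tspan2* and *Rom1* lower and *Tspan17* higher. Their median log2 fold change was -0.01, beside 0 for all genes tested.

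*Tspan17*, a member of the TspanC8 group that carries the sheddase ADAM10 to the cell surface, rose from near the limit of detection. It had 5.94, 1.97 and 3.81 normalized counts in WT and 51.7, 42.4 and 22.9 in UTX TCD (log2 fold change 3.03, SE 0.48, adjusted p = 0.00105 by limma). The means of 3.91 ± 1.99 and 39.0 ± 14.7 (SD) stand 9.98-fold apart. *Tspan2*, another low gene, fell, with 33.7, 29.6 and 23.6 in WT and 4.50, 8.01 and 3.69 in UTX TCD (log2 fold change -2.27, SE 0.40, adjusted p = 0.00204). Each of these 2 genes had a mean under 10, the minimum for testing over all libraries, in 1 genotype. With a minimum of 1, which both genotypes pass, both stayed called.

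*Rom1*, a tetraspanin best known from photoreceptor outer segments, fell from 1475 ± 11.3 to 757 ± 62.5 normalized counts (SD, n = 3 each). Its values were 1472, 1465 and 1487 in WT and 736, 827 and 708 in UTX TCD (log2 fold change -0.96, SE 0.08, adjusted p = 3.54e-05 by limma). *Tspan14* (log2 fold change -0.31, adjusted p = 0.00377), *Tspan5* (-0.25, adjusted p = 0.00281) and *Tspan3* (0.34, adjusted p = 0.00266) passed the adjusted p but not the limit on size. Of the 6 TspanC8 genes, 3 were tested and 1 called, *Tspan17*, where 17.6% of all genes tested were called. *Adam10* itself had 26701 ± 957 and 29649 ± 583 normalized counts (SD), with a log2 fold change of 0.15 and no call.

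Not tested for low values were *Tspan8*, *Tspan10*, *Tspan12*, *Tspan15*, *Tspan33* and *Prph2*, with at most 12.8 normalized counts in any library, and *Tspan11* and *Upk1b*, which were listed at 0 throughout. *Tspan16* and *Tspan19* had no row. *Tspan1*, *Tspan4*, *Tspan6*, *Tspan7*, *Tspan9*, *Tspan18* and *Upk1a* overlapped between genotypes and were not called.

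**Figure D2:**
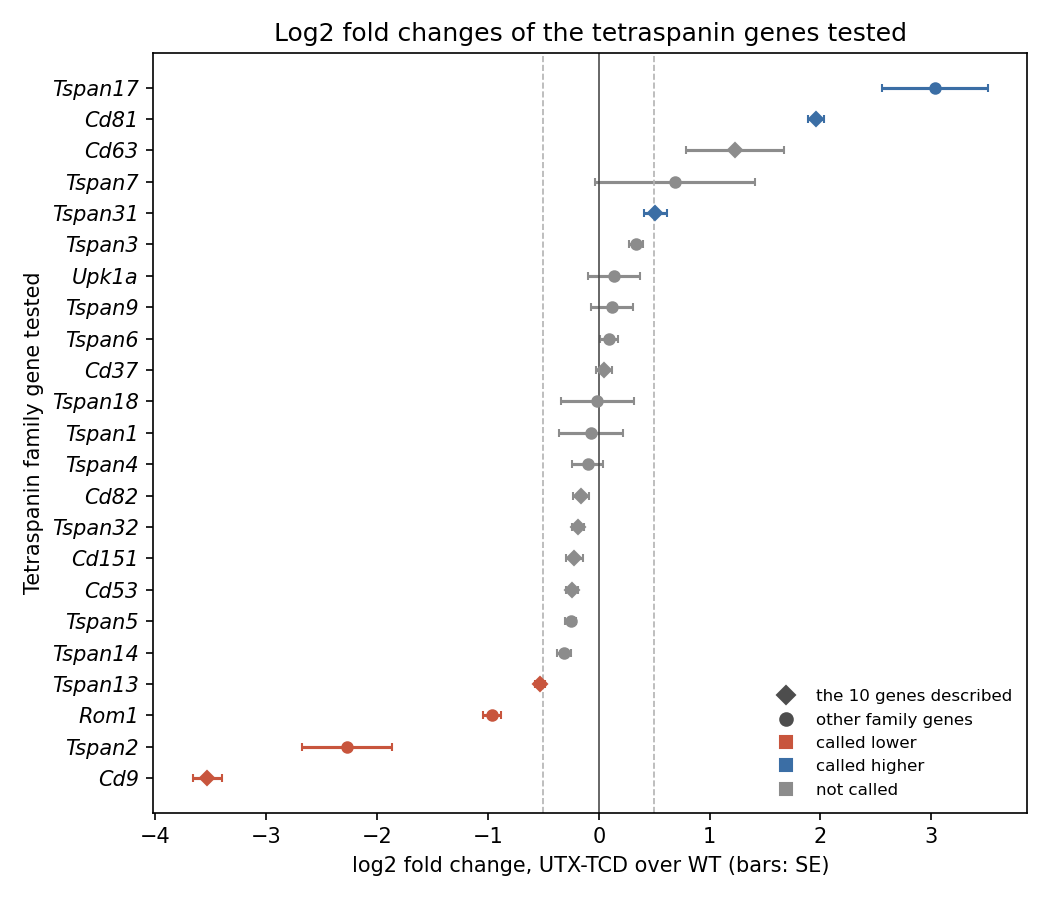
Log2 fold changes (UTX TCD over WT, bars SE, n = 3 per genotype) of the 23 tetraspanin genes tested; diamonds mark the 10 genes described and circles the others, with genes called lower in red, called higher in blue and not called in gray. Dashed lines mark the limit of 0.5 in either direction, and the values run from -3.53 for *Cd9* to 3.03 for *Tspan17*.

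Known partners of tetraspanins were read from lists by role. Of 44 genes listed, 40 were tested and 9 called, 6 lower and 3 higher, where 17.6% of all genes tested were called, 7.05% lower and 10.5% higher. Nothing is read from the count over the lists, which had a median log2 fold change of -0.14, beside 0 for all genes tested. Of the 4 genes tested for EWI proteins, a family that holds direct partners of CD9 and CD81, 2 fell and 0 rose. *Cd101*, whose product restrains T cell activation, had 579, 448 and 535 normalized counts in WT and 236, 199 and 207 in UTX TCD (log2 fold change -1.27, SE 0.14, adjusted p = 0.000135 by limma). *Ptgfrn*, which encodes the CD9 partner EWI-F, had 1260, 1060 and 1287 in WT and 817, 746 and 728 in UTX TCD (-0.65, SE 0.10, adjusted p = 0.00091). *Igsf8* (-0.21, adjusted p = 0.249) and *Igsf3* (-0.27, adjusted p = 0.173) were not called.

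Of 8 integrin genes tested, 2 fell and 0 rose, where 7.05% of all genes tested were called lower and 10.5% higher. Nothing is read from this count. *Itga4*, the α chain of the lymphocyte homing integrins, had 92438, 107687 and 89870 normalized counts in WT and 48247, 46934 and 44513 in UTX TCD (log2 fold change -1.05, SE 0.07, adjusted p = 8.48e-06 by limma). *Itga6*, the α chain of a laminin receptor, fell from 39243 ± 2949 to 25283 ± 1042 (SD; log2 fold change -0.63, SE 0.06, adjusted p = 6.19e-05). Their β chains were not called: *Itgb1* had a log2 fold change of 0.12 (adjusted p = 0.292), and *Itgb7* one of -0.41 (adjusted p = 0.000802), under the limit on size.

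Among lymphocyte surface partners, 3 of 9 tested were called, where 17.6% of all genes tested were called. *Ifitm3*, an interferon-induced membrane protein that associates with CD81 in B cells, rose from 32.7, 28.6 and 24.4 normalized counts in WT to 301, 241 and 171 in UTX TCD (log2 fold change 2.99, SE 0.25, adjusted p = 3.05e-05 by limma), though reads may be shared among its close paralogs. *Cr2*, which encodes the complement receptor CD21, had 158, 183 and 153 in WT and 234, 255 and 245 in UTX TCD (0.57, SE 0.14, adjusted p = 0.0112), a call that was lost without UTX TCD 2 (adjusted p = 0.0501) and with a fold change over 1.5 required. *Cd4* had 83.1 to 104 in WT and 41.3 to 68.1 in UTX TCD (-0.74, SE 0.24, adjusted p = 0.0384), and its call was lost in 7 of 16 settings, among them DESeq2 (adjusted p = 0.0573). *Cd2*, the adhesion receptor, was not called (-0.49, adjusted p = 0.00257), although it passed the limit of 0.5 with TMM scaling (-0.50) and without WT 2 (-0.58), UTX TCD 1 (-0.53) or UTX TCD 2 (-0.52).

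Palmitoylation anchors tetraspanins in their membrane domains. Of the 3 palmitoyl transferase genes tested 1 rose and 1 fell, where 17.6% of all genes tested were called. *Zdhhc2*, whose product palmitoylates CD9 and CD151, had 202, 254 and 173 normalized counts in WT and 1230, 1226 and 1768 in UTX TCD (log2 fold change 2.74, SE 0.18, adjusted p = 8.58e-06 by limma), 6.72-fold higher by the means. *Zdhhc20* had 35481 ± 2179 and 24694 ± 1658 (SD; -0.52, SE 0.06, adjusted p = 0.000212), a call lost when each library was scaled to the same total (-0.46), without WT 3 (-0.48), without UTX TCD 1 (-0.48) and with a fold change over 1.5 required. Exon bases shared with a gene on the opposite strand make up 4.47% for *Zdhhc2* and 8.04% for *Itga4*.

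In the other partner lists limma called 0 genes: 0 of 3 linkers to the actin cytoskeleton, 0 of 4 sheddases and substrates, 0 of 2 protein kinase C genes and 0 of 7 genes of exosomes and late endosomes. Also edgeR and DESeq2 called 0 in each, while an unadjusted p under 0.05 in limma was found for 2, 3, 2 and 3 of them. The largest of these differences were *Sdcbp*, which encodes the exosome adaptor syntenin (log2 fold change -0.43, adjusted p = 8.34e-05), and *Msn*, which encodes moesin (-0.35, adjusted p = 0.00126).

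ATAC-seq was read from 23932 peaks, all with an FDR under 0.05 in the authors' comparison, so a gene without a listed peak may still have accessible chromatin. The values are the log2 of the authors' mean normalized reads per genotype, called log2 mean concentrations here. They come without values per library, so the differences carry no error or test. The 10 genes had 19 listed peaks at 8 genes, 11 lower and 8 higher in UTX TCD, with a median log2 difference of -0.33, beside 0.49 over all listed peaks. Past a log2 difference of 0.5 were 11 of 19, 6 lower and 5 higher, where 73.1% of all listed peaks were past it, 23.8% lower and 49.3% higher. *Cd37* and *Tspan31* had none.

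All 5 peaks listed at *Cd9* were lower in UTX TCD. The largest difference was at chr6:125471260-125471660 in intron 2 of 7. There the log2 mean concentration was 6.68 in WT and 5.12 in UTX TCD, a log2 difference of -1.56. Another peak of the same intron, at chr6:125468323-125468723, differed by -0.95, from 8.57 to 7.63. The most accessible one, at chr6:125480946-125481346 in intron 1, went from 10.26 to 9.70, a difference of -0.57. The promoter peak at chr6:125494495-125494895 differed by only -0.33 and an intergenic peak upstream at chr6:125498165-125498565 by -0.47, so the intronic peaks differed by more than the promoter did.

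The single peak listed at *Cd81* covers its promoter, at chr7:143052544-143052944. This peak had a log2 mean concentration of 8.70 in WT and 9.81 in UTX TCD, a log2 difference of 1.10. It was 1 of only 2 peaks of the 10 genes with a difference over 1, beside the intron 2 peak of *Cd9*. Its neighbor *Tspan32*, which ends 33095 bases upstream on the same strand, had 3 peaks, which differed by 0.55 at chr7:143008494-143008894 and 0.78 at chr7:143010013-143010413, both in intron 3 of 8 by the authors' annotation, and by 0.72 at chr7:143021746-143022146. In GENCODE vM21 the first of these lies within a longer annotated exon of *Tspan32* (chr7:143005638-143009985). All 4 peaks listed from *Tspan32* to *Cd81* were higher in UTX TCD, as was the promoter peak of *Tssc4* just downstream of *Cd81* (0.35), yet the RNA of *Tspan32* was slightly lower, while that of *Cd81* and of *R74862*, which shares exon bases with it, was higher.

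**Figure D3:**
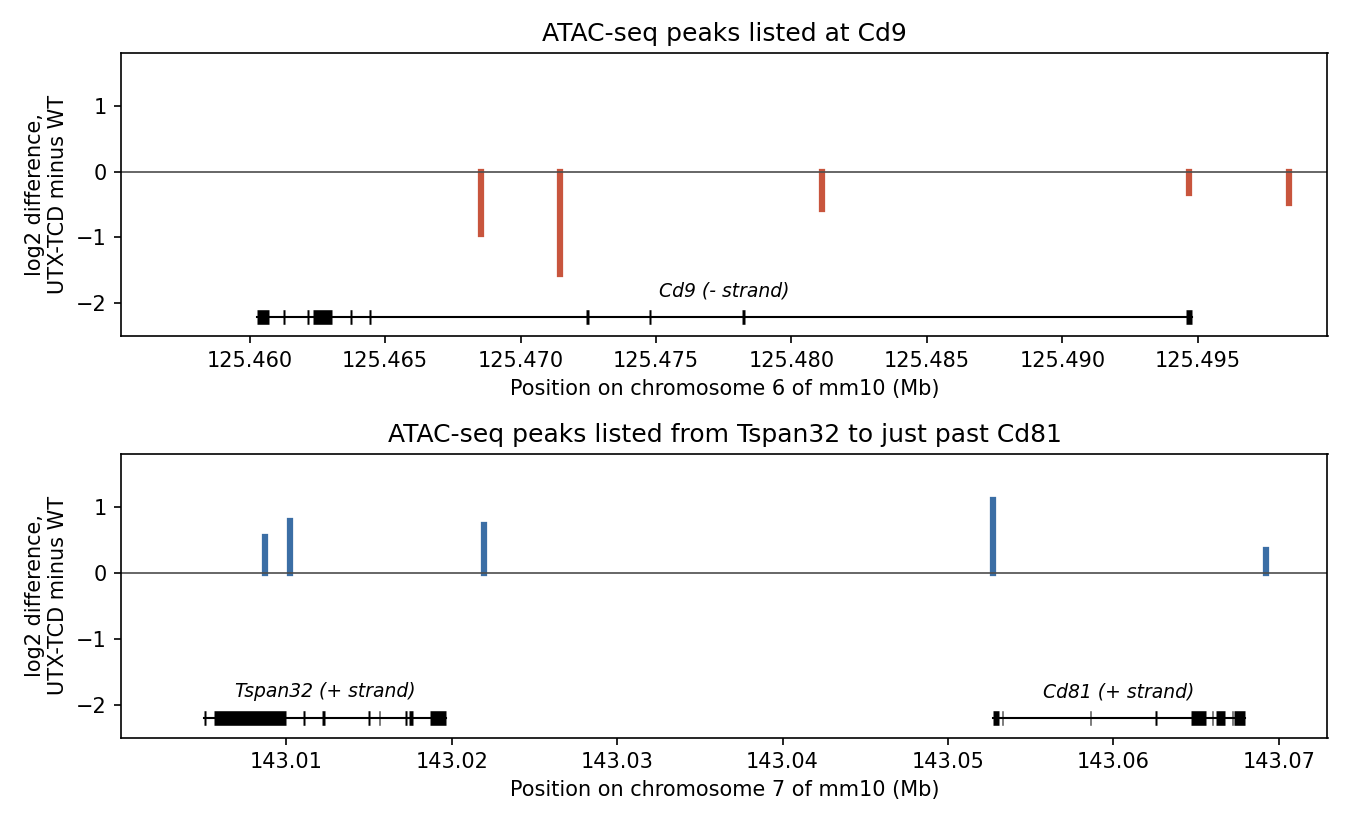
Log2 differences (UTX TCD minus WT, authors' group means) of the peaks listed around *Cd9* on chromosome 6 and from *Tspan32* to just past *Cd81* on chromosome 7 of mm10, with exons below as boxes; red bars are lower and blue bars higher in UTX TCD. The 5 peaks at *Cd9* lie between -1.56 and -0.33, and the 5 on chromosome 7, of which the last is at *Tssc4*, between 0.35 and 1.10.

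For the other genes, the direction of the peaks matched that of the RNA at some and not at others. *Tspan13* had 4 peaks in intron 1 of 5, all lower, the largest difference being -0.94 at chr12:36032510-36032910. *Cd53* had 3 peaks that were higher by 0.30 to 0.43, while its RNA was lower. The promoter peak of *Cd63* differed by 0.53, the peak near the start of *Cd151* by -0.29 and a peak upstream of *Cd82* by -0.44.

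The protein-coding neighbors that could be tested differed less in RNA than *Cd9* and *Cd81*. Within 100 kb of *Cd9*, *Tnfrsf1a* had a log2 fold change of 0.01 (adjusted p = 0.96 by limma) and *Plekhg6* one of -0.30 (adjusted p = 0.36), and *Vwf* was too low to test. Next to *Cd81*, *Tssc4* lies 1315 bases downstream and differed by 0.21 on the log2 scale (SE 0.07, adjusted p = 0.0333 by limma), under the limit on size, and *Trpm5*, *Ascl2* and *Kcnq1* were too low to test.

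In the rest of the family 37 peaks were listed at 16 genes, 12 lower and 25 higher, which is 67.6% higher, close to the 68.8% of all listed peaks. Promoter peaks were listed at 5 of those genes, and all 5 were higher in UTX TCD: *Tspan17* by 1.72 at chr13:54788935-54789335, *Tspan15* by 1.39, *Tspan18* by 1.32, *Tspan7* by 1.22 and *Tspan9* by 0.29. With the promoters of *Cd53*, *Cd63* and *Cd81*, 8 of the 9 family promoter peaks were higher, *Cd9* being the exception, beside 85.3% of the 2621 promoter peaks listed for all genes. *Tspan15* stayed at 2.97 normalized counts or less. *Rom1* had a single peak, at chr19:8926744-8927144 near its 3′ end, which differed by -1.11 in the direction of its RNA, and *Tspan2* had 1 lower (-0.87) and 3 higher peaks.

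Of the 9 partner genes called, some had all listed peaks in the direction of their RNA and others had peaks in both directions, where 68.8% of all listed peaks were higher in UTX TCD. The promoter of *Zdhhc2* at chr8:40423543-40423943 differed by 1.67 and that of *Cr2* by 1.05, both higher. By the gene names of the authors' annotation, which can go to a peak outside the gene, all 4 peaks of *Zdhhc20* were lower, by up to -2.05 (intergenic), and 9 of 11 of *Itga4*, the promoter peak among them (-0.56). All 4 peaks named for *Cd101* were lower, 2 of them within the gene (-0.28 and -0.41) and 2 within the body of its neighbor *Ptgfrn* (-0.81 and -0.50). The body of *Ptgfrn*, whose RNA also fell, thus held 3 lower peaks, with 1 of its own (-0.59), and the higher peak named for it is intergenic (0.47). *Itga6*, whose RNA fell, had 4 lower and 3 higher peaks, *Ifitm3*, whose RNA rose, had 2 lower and 1 higher, and *Cd4* had none listed.

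Sequences are from the reference genome, which is of the C57BL/6J strain, whereas the mice are NOD, so single bases may differ. Promoters were taken from RefSeq on GRCm38.p6, where all 10 genes had an entry, 14 entries in all, equal to the genome at their coordinates. On both strands, the STAT motif TTCNNNGAA was found in a promoter of 1 of the 10 genes (*Cd82*) and in 8.30% of all 32851 promoters. The TCF/LEF motif CTTTGA was in 2 (*Cd63*, *Cd82*) and in 16.0% of promoters, the RUNX motif TGTGGT in 3 (*Cd53*, *Cd82*, *Tspan32*) and in 16.8%, and the AP-1 motif TGANTCA in 0 and in 7.81%. The GC box GGGCGG, searched after the sequences had been seen, was in 6 and in 35.7%. The counts at the 10 genes are per gene, over all entries of a gene, while the shares are per promoter, so their units differ. The letters of STAT, TCF/LEF and AP-1 can overlap one another, but no matches at the 10 genes did. A match is a description of letters only.

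The promoters of *Cd9*, *Cd81* and *Tspan17* are shown because they carry a lower, a higher and the most changed promoter peak of the family. Each runs from 250 bases before the RefSeq start up to the first annotated exon base of the gene. Capitals mark the GC box, on either strand, which is the only one of these motifs found in them. They are *Cd9* at chr6:125494792-125495010 on the minus strand, *Cd81* at chr7:143052500-143052738 on the plus strand and *Tspan17* at chr13:54789155-54789376 on the plus strand of GRCm38.p6. The *Cd9* stretch lies within an exon of the opposite-strand gene *Gm26728*. G and C make up 61.2%, 65.3% and 69.8% of their bases.
*Cd9* promoter: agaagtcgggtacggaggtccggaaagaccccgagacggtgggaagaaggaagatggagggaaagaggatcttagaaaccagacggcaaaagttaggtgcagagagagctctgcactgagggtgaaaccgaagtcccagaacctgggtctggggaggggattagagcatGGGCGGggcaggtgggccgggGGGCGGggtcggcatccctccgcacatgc
*Cd81* promoter: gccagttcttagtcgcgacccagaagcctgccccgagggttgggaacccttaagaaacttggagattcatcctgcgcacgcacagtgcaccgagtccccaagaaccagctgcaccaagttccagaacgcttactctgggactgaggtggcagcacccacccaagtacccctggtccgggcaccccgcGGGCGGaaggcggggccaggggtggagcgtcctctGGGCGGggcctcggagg
*Tspan17* promoter: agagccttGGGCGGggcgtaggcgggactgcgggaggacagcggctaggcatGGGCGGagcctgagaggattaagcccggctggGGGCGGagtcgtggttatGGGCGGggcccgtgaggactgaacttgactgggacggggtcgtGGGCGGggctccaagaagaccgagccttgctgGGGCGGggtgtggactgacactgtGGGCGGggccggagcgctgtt

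In the peaks of the 10 genes, the AP-1 motif was found in 5 of 19 and in 12.8% of all 23931 peaks of the same 401 bases. RUNX was in 9 of 19 and in 39.6% of peaks, TCF/LEF in 5 of 19 and in 30.5%, STAT in 0 of 19 and in 11.9%, and the GC box in 5 of 19 and in 22.3%. The 5 peaks with AP-1 included 2 lower peaks at *Cd9* and higher peaks at *Tspan32*, *Cd53* and *Cd63*, so the letters were present at peaks of either direction. The middle 300 bases are shown for the 2 *Cd9* peaks with the largest differences and for the most changed peaks of *Tspan32* and *Cd53*, all in introns and free of annotated exons. Capitals mark any of the 5 motifs, and no capitals mean that none of these letters is in the window. On the strand of each gene, the positions are chr6:125471310-125471609 (minus), chr6:125468373-125468672 (minus), chr7:143010063-143010362 (plus) and chr3:106785164-106785463 (minus).
*Cd9* intron 2 peak with the largest difference: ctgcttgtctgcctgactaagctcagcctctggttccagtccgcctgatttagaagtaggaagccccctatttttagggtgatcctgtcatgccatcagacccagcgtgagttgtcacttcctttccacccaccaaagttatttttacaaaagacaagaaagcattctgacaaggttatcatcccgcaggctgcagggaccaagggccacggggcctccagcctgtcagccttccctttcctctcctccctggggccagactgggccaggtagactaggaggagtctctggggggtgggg
*Cd9* intron 2 peak with the next largest difference: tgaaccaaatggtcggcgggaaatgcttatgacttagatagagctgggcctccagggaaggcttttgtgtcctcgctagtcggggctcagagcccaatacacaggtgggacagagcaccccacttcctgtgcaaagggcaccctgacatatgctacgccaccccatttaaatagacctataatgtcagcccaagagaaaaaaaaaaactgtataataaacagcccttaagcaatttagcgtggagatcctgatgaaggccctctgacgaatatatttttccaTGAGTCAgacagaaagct
*Tspan32* intron 3 peak: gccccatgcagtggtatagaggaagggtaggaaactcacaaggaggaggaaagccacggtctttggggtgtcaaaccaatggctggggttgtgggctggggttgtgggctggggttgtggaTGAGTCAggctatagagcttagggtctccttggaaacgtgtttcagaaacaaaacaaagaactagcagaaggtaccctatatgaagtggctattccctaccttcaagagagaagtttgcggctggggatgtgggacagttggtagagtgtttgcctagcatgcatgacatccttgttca
*Cd53* intron 1 peak: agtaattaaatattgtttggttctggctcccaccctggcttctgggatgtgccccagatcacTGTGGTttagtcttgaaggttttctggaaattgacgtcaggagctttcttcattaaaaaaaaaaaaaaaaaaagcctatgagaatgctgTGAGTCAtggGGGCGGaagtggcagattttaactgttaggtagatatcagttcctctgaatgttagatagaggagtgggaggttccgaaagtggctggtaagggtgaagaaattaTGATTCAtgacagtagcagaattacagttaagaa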

How the data were processed

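RNA-seq and ATAC-seq had been made from CD8+ T_prog_ cells, with 3 libraries per genotype, called biological replicates in the methods for ATAC-seq. A figure caption of the paper gives n = 3 per group for both assays. For RNA-seq the sources used here do not say whether each library came from a separate animal. For RNA-seq the authors aligned reads to mm10 with HISAT2 2.2.1, summarized them per gene with featureCounts and divided the counts by DESeq2 size factors, so the deposited signal per gene and library is a normalized count. The gene annotation and strand setting are not given in the sources used here. For ATAC-seq the authors trimmed reads with Cutadapt, aligned them with Bowtie2, called peaks with MACS2 and compared genotypes with DiffBind. The deposited peak values are log2 concentrations per genotype, pooled over libraries. The authors' own comparisons, log2 fold changes with p-values and an FDR, were also deposited and were not used, except that all peaks had an FDR under 0.05. A shift of reads for the transposase is not given in the sources used here.

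Genotype came from the labels. The 14459 genes whose normalized counts averaged 10 or more entered a limma 3.58.1 fit (lmFit, eBayes with trend; R 4.3.3) of log2 values after adding 1, genotype being the sole term, with Benjamini-Hochberg adjustment over all of them. Fold changes on this scale understate those of low genes. Genes were called where the adjusted p was under 0.05 and the log2 fold change exceeded 0.5 in either direction. An exact permutation test of 3 against 3 libraries could not go below p = 0.1 (two-sided) and was not used. Dividing each library by its smallest step returned whole reads for 100% of values (tolerance 0.01), and edgeR 4.0.16 and DESeq2 1.42.0 were run on these reads as alternatives; edgeR called 2541 genes and DESeq2 2422. Exon lengths and positions came from GENCODE vM21, and sequences were read with pysam 0.24.0. The code was tested on simulated data.

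The genes described and the lists were chosen with earlier results of these data known. Named were the 10 genes, *Kdm6a*, family genes called or with a peak, partner genes called, the most abundant gene of each list of other cell types and the 5 genes most like *Cd9*. Other names were chosen after their values were seen: uncalled family and partner genes, further cell type markers, neighbors and genes that share exons. Alternatives were another pseudocount, filter, scaling, test, replicate block or fold limit, each library left out in turn, and other limits for peaks. Values of 1 gene of the lists are not reported here, although the list counts and sums include it.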

Additional observations from a re-analysis of the deposited data

How the results depend on the processing

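For *Rom1*, *Tspan17*, *Cd101*, *Ptgfrn*, *Itga4*, *Itga6*, *Ifitm3* and *Zdhhc2*, direction and call were the same in every alternative run. The exception was that with a minimum mean of 50 normalized counts *Tspan17* was not tested. *Cd9* and *Cd81*, chosen with this contrast known, are only described. Their log2 fold changes ranged from -3.61 to -3.41 and from 1.92 to 2.03. Without a limit on the fold change, 5887 genes were called in place of 2538, 13 in place of 7 for the family, 23 in place of 9 for the partners and 7 in place of 4 for the 10 genes, since more small differences then count. With a fold change over 1.5 required, 2 of the 10 genes were past it, *Cd9* and *Cd81*. For their ATAC-seq peaks, 2 differed by more than 1 on the log2 scale, 19 were listed without a limit and 2 of those past 0.5 lay within 1 kb of a start site, in place of 11. Leaving out each library in turn gave 2164 to 2570 calls over all genes, 6 to 8 in the family, 7 to 9 among partners and 3 to 5 of the 10 genes. With the replicate number as a block, 2474, 7, 9 and 4 were called. Same-numbered libraries had correlations of their deviations of 0.305, -0.2 and 0.09, and not every library correlated best with its own number. With 3 libraries per genotype, these values cannot show whether the numbers pair the libraries. For single genes outside the 10, 1364 alternative values kept their side of the call, 41 gained a call, 21 lost one and 0 reversed. For the 10 genes, 157 values moved by less than the spread between replicates and 2 by more, *Tspan13* (-0.47) and *Cd151* (-0.16), both with each library scaled to the same total. Scaling moved the median of all genes by at most 0.06 on the log2 scale. Depth limits *Cd63*, *Tspan17* and *Tspan2*, which rest on few reads, and the peaks carry no replicate error.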
